A study of Mus musculus with 10 samples.

Results

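The chromatin accessibility of group 2 innate lymphoid cells (ILC2s) of the small intestine (SI) was compared with that of ILC2s of the pancreas. The comparison rests on 4 of the 10 libraries of the series, which are SI replicates 1 and 2 and pancreas replicates 1 and 2. Of the 50039 regions in the deposited table, 49981 held at least 1 count in the series and were tested. The series measured ILC2s of 5 mouse tissues by ATAC-seq, in which the Tn5 transposase cuts open chromatin and places sequencing adapters there. The other tissues were bone marrow (BM), large intestine (LI) and lung, each with 2 libraries. All cells came from unmanipulated wild-type C57BL/6 male mice aged 6 weeks, and each library was made from 50000 sorted cells. Cells of 10 mice were pooled for an SI library and cells of 16 mice for a pancreas library, so the spread between replicates is the spread between pools. Pancreas ILC2s were sorted as lineage-negative (CD3, B220, CD11b, CD11c and FceRI) CD45+CD127+ST2+CD25+ cells, as were LI and lung ILC2s. SI ILC2s were sorted as lineage-negative CD45+CD127+KLRG1+ cells with a reduced level of Thy1, without selection on ST2 or CD25. The intestine was also treated with EDTA and DTT and then digested with collagenase and DNase I. The pancreas was digested for a shorter time, with collagenase and without DNase I. Tissue, gate and dissociation therefore cannot be told apart in this contrast.

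ILC2s are tissue-resident lymphocytes without antigen receptors that respond to the epithelial alarmins IL-33, IL-25 and TSLP. They are known for IL-5, which sustains eosinophils, IL-13, which drives mucus production and smooth muscle contraction, and amphiregulin, which supports tissue repair. In the intestine they sit below the epithelium, where IL-25 from tuft cells reaches them through the receptor subunit IL-17RB, and where dietary and microbial ligands act on the aryl hydrocarbon receptor. In most other organs, IL-33 acting on its receptor ST2 is the better known signal. Open regions outside promoters include enhancers, which bind transcription factors and can control genes at a distance.

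Regions that recur in the results are shown by sequence, 4 that were more accessible in pancreas and 4 that were more accessible in SI. Each window of 160 bases lies in the central 500 bases of its region, on the plus strand of mm10, and was placed where the motif matches were most dense. Capitals mark matches, on either strand, to the letters of 6 motifs. These are AGATAA for the GATA factors, TGANTCA for the dimer AP-1, TGTGGTT for the RUNX factors, AGGAAGT for the ETS factors, GAAANNGAA for the IRF factors and TGCGTG for the receptor AHR. The windows more accessible in pancreas lay at *Il1rl1* (the IL-33 receptor ST2), *Alox5* (5-lipoxygenase), *Arg1* (arginase 1) and *Ramp1* (a subunit of the receptor for the neuropeptide CGRP).
Il1rl1, chr1:40448532-40448691: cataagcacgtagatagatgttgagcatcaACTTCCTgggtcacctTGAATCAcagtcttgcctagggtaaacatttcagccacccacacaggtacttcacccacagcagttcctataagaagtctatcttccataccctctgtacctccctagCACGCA
Alox5, chr6:116443000-116443159: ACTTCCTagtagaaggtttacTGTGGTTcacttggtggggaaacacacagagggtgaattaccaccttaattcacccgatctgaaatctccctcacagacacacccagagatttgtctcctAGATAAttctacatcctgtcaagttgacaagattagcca
Arg1, chr10:24931620-24931779: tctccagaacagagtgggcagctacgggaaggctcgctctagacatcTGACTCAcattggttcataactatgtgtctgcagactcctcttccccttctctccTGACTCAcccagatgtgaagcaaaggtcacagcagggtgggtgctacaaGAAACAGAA
Ramp1, chr1:91193346-91193505: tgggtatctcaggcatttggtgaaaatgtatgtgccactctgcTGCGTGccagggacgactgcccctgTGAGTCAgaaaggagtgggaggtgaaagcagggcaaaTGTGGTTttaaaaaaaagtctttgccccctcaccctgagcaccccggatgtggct
The windows more accessible in SI lay at the cytokine genes *Il9* and *Il13*, at *Epas1* (the hypoxia-inducible factor HIF-2alpha) and at *Ahr* (the aryl hydrocarbon receptor).
Il9, chr13:56495583-56495742: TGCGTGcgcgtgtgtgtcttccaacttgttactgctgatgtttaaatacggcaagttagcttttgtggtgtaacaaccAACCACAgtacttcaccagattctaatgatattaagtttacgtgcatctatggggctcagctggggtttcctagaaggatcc
Il13, chr11:53626997-53627156: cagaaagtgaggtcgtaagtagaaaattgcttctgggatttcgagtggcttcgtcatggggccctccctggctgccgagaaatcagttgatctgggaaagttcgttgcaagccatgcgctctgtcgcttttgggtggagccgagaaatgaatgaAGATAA
Epas1, chr17:86782884-86783043: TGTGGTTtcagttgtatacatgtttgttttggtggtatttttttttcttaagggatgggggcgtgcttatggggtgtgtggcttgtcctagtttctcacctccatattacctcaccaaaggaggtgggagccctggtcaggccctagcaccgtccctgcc
Ahr, chr12:35510815-35510974: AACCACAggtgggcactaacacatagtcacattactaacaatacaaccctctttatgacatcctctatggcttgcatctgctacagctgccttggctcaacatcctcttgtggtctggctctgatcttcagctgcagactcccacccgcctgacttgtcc
AP-1 letters stood in the *Il1rl1*, *Arg1* and *Ramp1* windows and in none of the windows more accessible in SI. RUNX letters stood in the *Il9*, *Epas1* and *Ahr* windows, and also in the *Alox5* and *Ramp1* windows. GATA letters stood in the *Alox5* and *Il13* windows. AHR letters stood in the *Il1rl1*, *Ramp1* and *Il9* windows and not in the *Ahr* window. IRF letters stood in the *Arg1* window alone, and ETS letters in the *Il1rl1* and *Alox5* windows. A match to these letters is a description of the sequence and not a binding site.

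Total counts were 18960309 and 26080061 in the SI libraries and 17741625 and 10282987 in the pancreas libraries, with a median of 71 to 211 counts per region. The 50 largest regions took 11.8% to 17.6% of the counts in SI and 23.4% to 31.1% in pancreas. Replicates differed by more than counting noise, with a chi-square per degree of freedom of 27.5 in SI and 21.2 in pancreas, where counting noise alone gives 1. The Spearman correlation of replicates across regions was 0.927 in SI and 0.956 in pancreas. Promoter regions lay at 11 of 12 ILC2 marker genes, all but *Il17rb*. Their summed accessibility was 275 and 365 CPM (counts scaled to a common library size) in SI and 473 and 427 CPM in pancreas. The 2 promoter regions of *Il1rl1* held at most 2.84 and 3.03 CPM in SI, where the median over all promoters was 25.95 and 26.7 CPM. Of the 15 marker promoters, 5 were higher in pancreas and 0 in SI. Of all 160 regions at these genes, 59 were higher in pancreas (36.9%, against 12.0% of all tested) and 6 in SI (3.75%, against 8.45%). Genes of the sorting gates are among these markers. They had 19 pancreas-higher regions at *Il1rl1*, 7 at *Il2ra*, 4 at *Il7r* and 2 at *Klrg1*, and 0 SI-higher regions. No promoter region lay at any of 16 markers of acinar, ductal and islet cells, and 10 of these genes had no region at all. Intestinal epithelial markers had a promoter region at 2 of 14 genes, with sums of 14.0 and 11.3 CPM in SI and 10.3 and 13.3 CPM in pancreas. At markers of ILC3s, which gut tissue also holds, 6 of 18 regions were higher in SI (33.3%) and 0 in pancreas. Those 6 regions lay at 5 of the 9 ILC3 genes, and *Il23r* and *Ncr1* had no region. The only promoter region of the list was that of the chemokine receptor gene *Cxcr5*. It held 13.2 and 15.1 CPM in SI against 5.77 and 7.12 CPM in pancreas. At B cell markers 3 of 6 regions (50%) were higher in SI, while *Cd79a* and *Ms4a1* had no region. Mast cell and basophil markers had 8 pancreas-higher (28.6%) and 4 SI-higher (14.3%) regions of 28 but no promoter region. The defining genes *Fcer1a*, *Ms4a2* and *Mcpt8* had no region. Stromal and endothelial markers had 6 pancreas-higher (26.1%) and 5 SI-higher (21.7%) regions of 23. The part of such cells in the results below was not tested.

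SI and pancreas ILC2s differed at 10236 regions (20.5%). Accessibility was higher in SI at 4224 regions, 8.45% of those tested, and higher in pancreas at 6012 regions, 12.0% of those tested. A region counted as higher when edgeR's quasi-likelihood test gave a Benjamini-Hochberg adjusted p under 0.05, after TMM normalization and with the 10 libraries in a common fit. Differences are given as log2 values, SI minus pancreas or pancreas minus SI as stated, and levels as CPM after TMM normalization. The median difference was 1.36 log2 at SI-higher regions and 1.45 log2 at pancreas-higher regions. Differences above 3 log2 were found at 162 SI-higher and 296 pancreas-higher regions. At the median, SI-higher regions held 10.8 CPM in SI and 3.85 CPM in pancreas, and pancreas-higher regions held 3.86 CPM in SI and 11.4 CPM in pancreas. In 4194 SI-higher and 6011 pancreas-higher regions both libraries of the higher tissue lay above both of the other.

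The balance of the directions depended on the scaling of the libraries. Pancreas-higher regions were 58.7% of the called regions after TMM normalization, and the median over all tested regions was 0.06 log2, SI minus pancreas. With scaling by library size alone they were 33.8%, and the median rose to 0.30 log2. When the 50 largest regions were left out of the library size, they were 57.3% and the median was 0.07 log2. Many calls were also lost when 1 library was left out. Such a fit leaves 1 library in that tissue, so a deviating library and the loss of replication cannot be told apart. Without pancreas replicate 1, 1364 SI-higher and 3966 pancreas-higher regions were called, and without pancreas replicate 2, 2347 and 3682 regions. SI replicate 1 exceeded SI replicate 2 by more than 3 times at 310 SI-higher regions, whereas the opposite held at 7. In each of the 4 fits without 1 library, 820 SI-higher regions (19.4%) and 2820 pancreas-higher regions (46.9%) were called.

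**Figure D1:**
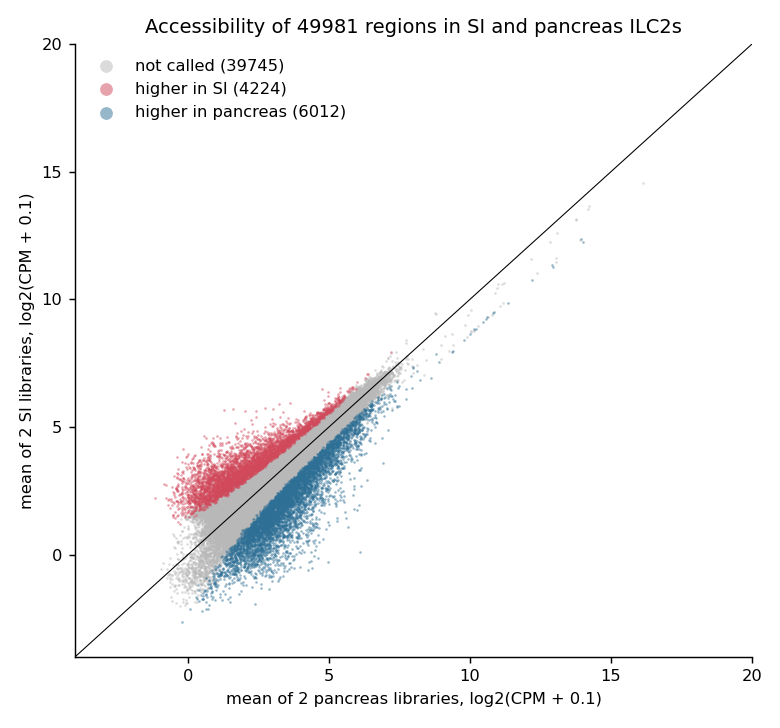
Mean accessibility of 49981 regions in the 2 pancreas libraries (x axis) and the 2 SI libraries (y axis), both as log2(CPM + 0.1), with 1 point per region and the line of equality. The 4224 SI-higher regions lie above the line and the 6012 pancreas-higher regions below it.

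Most of the differences lay outside promoters. A promoter region was centred between 1000 bases upstream and 100 bases downstream of a RefSeq transcription start site (TSS). Promoters made up 19.3% of tested regions, 13.4% of SI-higher regions and 5.41% of pancreas-higher regions. Intergenic regions made up 32.6%, 31.2% and 43.7% in the same order. Among non-promoter regions, 9.07% were SI-higher and 14.1% pancreas-higher. The median distance to the nearest TSS was 10.4 kb over all tested regions, 14.0 kb for SI-higher and 22.7 kb for pancreas-higher regions. A region was given the gene whose TSS lay closest, a convention that does not show which gene it acts on. At least 1 SI-higher region was assigned to 2887 of 16806 genes (17.2%) and at least 1 pancreas-higher region to 3194 genes (19.0%), with 559 genes in both sets. Across 5513 genes with a promoter and another region, the promoter difference and the mean difference of the other regions had a Pearson correlation of 0.385 and a Spearman correlation of 0.357. This is a description across genes, which share their libraries and are not independent. Of 375 genes with an SI-higher promoter and another region, the other regions were on average higher in SI at 288. Of 235 such genes with a pancreas-higher promoter, they were on average higher in pancreas at 195.

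The sequences of the SI-higher and pancreas-higher regions differed in their motif content. GATA factors, with GATA3 as the lineage factor of ILC2s, and AP-1, the Fos and Jun dimers induced by activation, have consensus letters that were more frequent in pancreas-higher regions. AP-1 letters stood in the central 500 bases of 41.6% of non-promoter pancreas-higher regions, 25.7% of SI-higher regions and 26.6% of all tested non-promoter regions. GATA letters stood in 39.9%, 24.6% and 28.3% in the same order. RUNX letters, read by factors such as RUNX3, stood in 20.3% of pancreas-higher, 27.4% of SI-higher and 19.9% of all such regions. IRF letters were found in 15.1%, 21.2% and 16.0%, ETS letters in 26.7%, 19.4% and 21.9%, and AHR letters in 9.36%, 14.0% and 12.0%. The other motifs differed less between SI-higher and pancreas-higher regions, as SMAD letters (CAGACA) did with 43.1% and 43.4%. Both strands were read for each of the 16 motifs, and a base could belong to more than 1 motif.

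**Figure D2:**
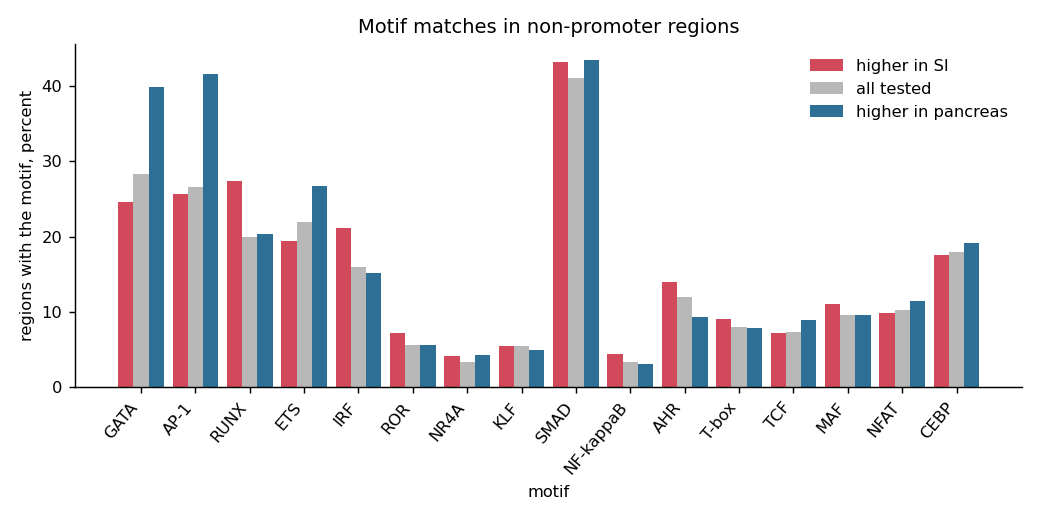
Percent of non-promoter regions (y axis) whose central 500 bases hold the letters of each of 16 motifs (x axis), for SI-higher regions, all tested regions and pancreas-higher regions. GATA and AP-1 bars are highest in pancreas-higher regions at 39.9% and 41.6%, and the RUNX bar is highest in SI-higher regions at 27.4%.

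Among the regions more accessible in pancreas were all 19 regions nearest to *Il1rl1*, the gene of the IL-33 receptor. All regions were also higher in pancreas at some genes with fewer regions, such as *Alox5* and *Ramp1* (10 of 10 each). At the region in intron 8 (chr1:40448262-40448777), whose central part is printed above, SI libraries held 0.626 and 0.488 CPM and pancreas libraries 21.1 and 17.0 CPM. The SI libraries were thus close to empty where both pancreas libraries were clearly open. The difference, pancreas minus SI, was 5.11 log2 (SE 0.38, adjusted p = 4.2e-07 by edgeR). At the *Il1rl1* promoter, SI libraries held 1.69 and 0.522 CPM and pancreas libraries 15.0 and 13.7 CPM, without overlap. Together with *Il1rl2* next to it, *Il1rl1* formed the longest run of neighbouring pancreas-higher regions, 20 regions over 90.0 kb. ST2 was part of the pancreas gate and not of the SI gate. In pooled cells, fewer cells of a type and lower accessibility per cell cannot be told apart.

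The genes whose proteins defined the gates were *Il1rl1*, *Il2ra*, *Il7r*, *Ptprc*, *Klrg1* and *Thy1*. Of their 83 regions, 40 were higher in pancreas (48.2%, against 12.0% of all tested) and 0 in SI (against 8.45%). Each of the 6 genes had at least 1 pancreas-higher region. At *Il2ra*, which encodes the IL-2 receptor subunit CD25, 7 of 13 regions were higher in pancreas. Its strongest region held 2.94 and 3.45 CPM in SI and 15.0 and 17.3 CPM in pancreas, a difference of 2.33 log2 (adjusted p = 5.7e-05 by edgeR). At *Il7r*, the receptor CD127 used in both gates, 4 of 16 regions were higher in pancreas, the strongest by 1.60 log2. The *Il7r* promoter did not pass the test (adjusted p = 0.052 by edgeR). *Thy1* and *Ptprc* (CD45) had 5 of 13 and 3 of 14 pancreas-higher regions. *Klrg1*, an inhibitory receptor selected for in SI, had 2 of 8. Its strongest region held 14.6 and 26.1 CPM in SI and 39.2 and 36.2 CPM in pancreas, a difference of 0.89 log2 (adjusted p = 0.016 by edgeR). The *Klrg1* call was lost without SI replicate 1, pancreas replicate 1 or pancreas replicate 2 (adjusted p = 0.098, 0.10 and 0.056 by edgeR) and with scaling by library size alone. Of the 40 regions, 24 were called in each fit without 1 library.

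Of 149 regions at cytokine receptor genes, 61 were higher in pancreas (40.9%, against 12.0% of all tested) and 6 in SI (4.03%, against 8.45%), at 16 and 5 of 26 genes, and the median over the list was 0.60 log2 higher in pancreas. The gate genes *Il1rl1*, *Il2ra* and *Il7r* made up 30 of the 61, and the rest of the list had the remaining 31. The IL-18 receptor genes lie beside *Il1rl1* on chromosome 1. At *Il18r1*, the binding subunit, the strongest region held 3.13 and 3.80 CPM in SI and 22.5 and 20.2 CPM in pancreas, a difference of 2.62 log2. At *Il18rap*, the signalling subunit, 6 of 9 regions were higher in pancreas, the strongest by 2.56 log2. The promoters of both genes did not pass the test (adjusted p = 0.17 and 0.14 by edgeR). SI-higher regions lay at *Il2rb*, *Il10rb* and *Il21r*, with 1 each, at *Il6st*, the shared subunit gp130 of the IL-6 family receptors, with 2 SI-higher and 6 pancreas-higher regions of 13, and at *Il17rb*. The single region of *Il17rb*, the IL-25 receptor subunit, overlapped exon 9 and held 5.25 and 7.56 CPM in SI and 2.00 and 3.02 CPM in pancreas. Both SI libraries lay above both pancreas libraries, by 1.38 log2 (adjusted p = 0.015 by edgeR). Without SI replicate 2 or pancreas replicate 1 the *Il17rb* call was lost (adjusted p = 0.10 and 0.14 by edgeR), as was that of the strongest *Il6st* region without pancreas replicate 1 (adjusted p = 0.080 by edgeR). None of the 6 SI-higher receptor regions and 39 of the 61 pancreas-higher ones were called in each fit without 1 library.

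Genes of leukotriene and prostaglandin synthesis and sensing had 36 pancreas-higher regions of 92 (39.1%, against 12.0% of all tested) at 11 of 19 genes, and 4 SI-higher regions (4.35%, against 8.45%) at 3 genes. *Alox5*, which makes leukotrienes from arachidonic acid, had 10 pancreas-higher regions of 10. Its strongest region, in intron 3, held 1.20 and 0.592 CPM in SI and 8.19 and 8.63 CPM in pancreas. Both pancreas libraries lay far above both SI libraries, by 3.25 log2 (SE 0.46, adjusted p = 0.00013 by edgeR). *Lpcat2*, an acyltransferase of platelet-activating factor synthesis, had 6 pancreas-higher regions of 6, the strongest by 3.65 log2 in intron 9 of its neighbour *Mmp2*. Beside *Alox5*, the prostaglandin E2 receptor gene *Ptger3* had 3 of 5, with a promoter at 1.64 and 1.57 CPM in SI and 8.78 and 9.28 CPM in pancreas. At *Pla2g4a*, the cytosolic phospholipase that releases arachidonic acid, 1 of 4 regions was higher in pancreas, 583 kb from the TSS, and the promoter did not pass the test (adjusted p = 0.13 by edgeR).

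Galectin, S100 and cytoskeleton genes had 23 pancreas-higher (37.1%, against 12.0% of all tested) and 0 SI-higher regions (against 8.45%) of 62, at 12 of 17 genes. With scaling by library size alone these counts were 14 and 5. *S100a10*, the annexin A2 partner, had a region at 0.530 and 0.557 CPM in SI and 4.95 and 7.66 CPM in pancreas. *Vim*, which encodes the intermediate filament vimentin, differed by 3.41 log2 at a region 9.60 kb from its TSS, but its promoter did not pass the test (adjusted p = 0.46 by edgeR). *Lgals3*, encoding galectin-3, and *Anxa1*, encoding the phospholipid-binding annexin A1, had regions that were 2.96 and 2.79 log2 higher in pancreas. At *Lgals1*, which encodes galectin-1, 1 of 3 regions was higher in pancreas. This promoter held 14.9 and 13.1 CPM in SI and 21.0 and 23.0 CPM in pancreas, a difference of 0.65 log2 (adjusted p = 0.043 by edgeR). The *Lgals1* call was lost with scaling by library size alone, with an edgeR fit of the 4 libraries, and without SI replicate 2, pancreas replicate 1 or pancreas replicate 2 (adjusted p = 0.12, 0.11 and 0.18 by edgeR).

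The effector genes of ILC2s were divided between the tissues. Of 118 regions at type 2 cytokine and effector genes, 29 were higher in pancreas (24.6%, against 12.0% of all tested) and 14 in SI (11.9%, against 8.45%). *Arg1*, which breaks down arginine in activated ILC2s, had 6 pancreas-higher regions of 14. Its strongest region, 4.22 kb from the TSS, held 1.40 and 1.64 CPM in SI and 11.1 and 14.8 CPM in pancreas, a difference of 3.07 log2 (SE 0.33, adjusted p = 1.1e-05 by edgeR). The *Arg1* promoter was 1.01 log2 higher in pancreas. At *Il5*, the promoter region held 3.80 and 4.77 CPM in SI and 10.5 and 9.06 CPM in pancreas, so the libraries did not overlap, with a difference of 1.19 log2 (adjusted p = 0.013 by edgeR). Without SI replicate 1 or pancreas replicate 1 the *Il5* call was lost (adjusted p = 0.054 and 0.10 by edgeR). *Bmp7*, a ligand of the TGF-beta superfamily, had 6 pancreas-higher regions of 9, the strongest at 2.98 and 2.61 CPM in SI against 15.7 and 15.0 CPM in pancreas.

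*Il13*, *Il9* and *Il10* had SI-higher and no pancreas-higher regions, 2 of 9, 1 of 5 and 7 of 11. At *Il13*, a region 7.69 kb from the TSS (chr11:53626708-53627307) held 40.1 and 55.4 CPM in SI and 11.5 and 9.06 CPM in pancreas. Both SI libraries were well above both pancreas libraries, by 2.20 log2 (SE 0.29, adjusted p = 7.9e-05 by edgeR). The *Il13* promoter held 11.6 and 19.3 CPM in SI and 18.4 and 15.5 CPM in pancreas, with overlap between the tissues (adjusted p = 0.77 by edgeR). At *Il9*, a growth factor for mast cells and ILC2s themselves, a region 13.4 kb from the TSS held 19.4 and 27.9 CPM in SI and 0.942 and 2.59 CPM in pancreas. It was nearly closed in pancreas and differed by 3.86 log2 (SE 0.42, adjusted p = 1.3e-05 by edgeR). At *Il10*, an inhibitory cytokine, the strongest region, in intron 4, held 29.8 and 9.44 CPM in SI and 2.00 and 1.62 CPM in pancreas, a difference of 3.41 log2 in which SI replicate 1 was more than 3 times SI replicate 2.

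Of 46 regions at aryl hydrocarbon receptor pathway genes, 16 were higher in SI (34.8%, against 8.45% of all tested) and 0 in pancreas. They lay at 9 of 11 genes, against 17.2% of all genes, and no region of *Arnt* or *Hsp90aa1* was called. The list holds *Ikzf3*, which is also counted with the Ikaros family below. *Ahr* itself had 7 SI-higher regions of 21. The strongest, in intron 4, held 3.80 and 7.56 CPM in SI and 1.00 and 0.324 CPM in pancreas, a difference of 2.98 log2 (SE 0.53, adjusted p = 0.00093 by edgeR). The promoter of *Ahrr*, the repressor that AHR induces against itself, held 11.9 and 16.9 CPM in SI and 2.12 and 1.73 CPM in pancreas, a difference of 2.88 log2 (adjusted p = 2.5e-05 by edgeR). A region in the promoter window of *Cyp1a1*, the detoxifying enzyme induced by AHR, held 9.87 and 13.0 CPM in SI and 3.71 and 3.13 CPM in pancreas. *Tiparp*, another AHR target, had a region at 13.1 and 3.0 CPM in SI and 0.707 and 1.29 CPM in pancreas. At this region SI replicate 1 stood apart, and the call was lost without it (1.60 log2, adjusted p = 0.099 by edgeR) and without pancreas replicate 1 (adjusted p = 0.075 by edgeR). Of the 16 regions, 5 were called in each fit without 1 library.

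Genes of cytotoxicity and NK-type receptors had 14 SI-higher (20.6%, against 8.45% of all tested) and 3 pancreas-higher regions (4.41%, against 12.0%) of 68. The *Gzma* promoter, which serves granzyme A, held 6.02 and 6.27 CPM in SI and 0.589 and 1.08 CPM in pancreas, a difference of 2.94 log2 (SE 0.55, adjusted p = 0.0014 by edgeR). Both regions of *Gzma* were higher in SI. At *Prf1*, encoding the pore-forming perforin, 3 of 3 regions were higher in SI, the strongest at 12.1 and 8.60 CPM in SI and 0.530 and 1.62 CPM in pancreas. *Gzmk*, encoding granzyme K, had a region 2.32 log2 higher in SI, whose call was lost without pancreas replicate 1 (1.46 log2, adjusted p = 0.11 by edgeR). *Cd244a*, an NK receptor of the SLAM family, had 1 region of 4 that was 2.29 log2 higher in pancreas. At ILC1 and NK cell markers, 3 SI-higher and 3 pancreas-higher regions of 29 (10.3% each) were found. The 3 SI-higher ones were the *Prf1* regions just given, so they add no further gene.

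Antigen presentation genes had 14 SI-higher regions (29.2%, against 8.45% of all tested) and 1 pancreas-higher region (2.08%, against 12.0%) of 48. These lay at 9 and 1 of 16 genes. The MHC class II genes *H2-Eb1* and *H2-Aa* had 4 of 6 and 3 of 4 SI-higher regions. At *H2-Aa* the promoter held 20.1 and 13.8 CPM in SI and 6.48 and 6.25 CPM in pancreas, a difference of 1.41 log2 (adjusted p = 0.0016 by edgeR). The strongest *H2-Eb1* region held 17.1 and 4.70 CPM in SI and 1.59 and 2.37 CPM in pancreas, with SI replicate 1 far above SI replicate 2. Without SI replicate 1 the *H2-Eb1* region differed by 1.24 log2 and its call was lost (adjusted p = 0.082 by edgeR), as it was without pancreas replicate 1 (adjusted p = 0.064 by edgeR). The *Cd80* promoter, for a costimulatory ligand, showed the same imbalance with 8.43 and 2.30 CPM in SI, and lost its call without SI replicate 1 (adjusted p = 0.16 by edgeR) or pancreas replicate 1 (adjusted p = 0.11 by edgeR). At *Tap2*, a subunit of the peptide transporter of MHC class I loading, a region in intron 5 was 1.32 log2 higher in pancreas and the promoter 0.90 log2 higher in SI, the latter losing its call without any of the 4 libraries (adjusted p = 0.082 to 0.21 by edgeR). Only 2 of the 14 SI-higher regions were called in each fit without 1 library, and markers of B cells, which carry MHC class II, were also higher in SI as given above.

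**Figure D3:**
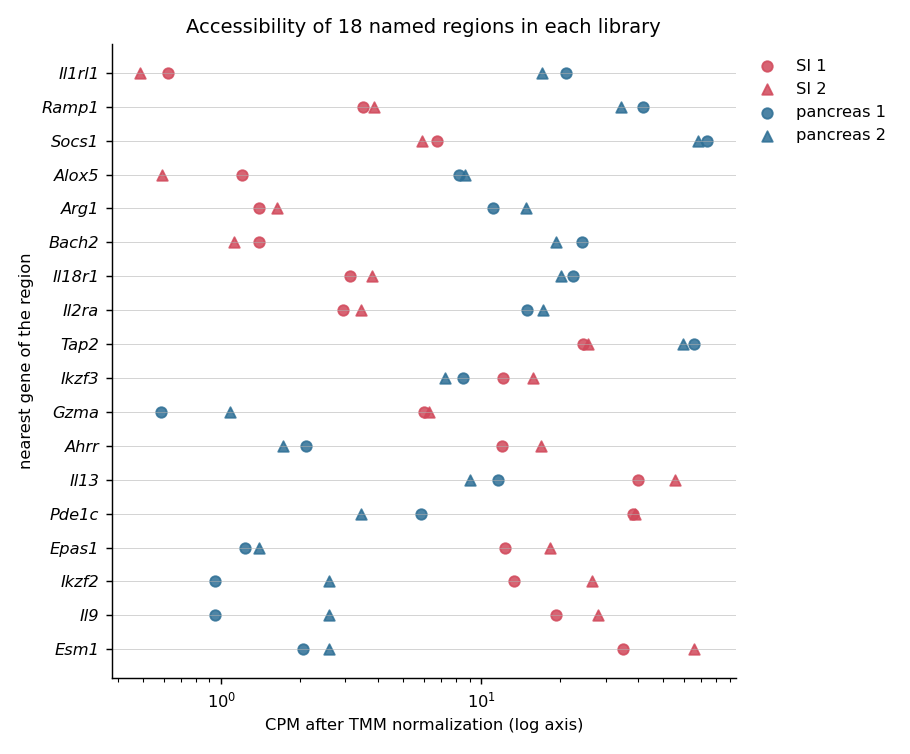
Accessibility of 18 regions named in the text (y axis, nearest gene) in each of the 4 libraries, as CPM after TMM normalization on a log axis (x axis). Circles are replicates 1 and triangles replicates 2, and in each line the 2 libraries of a tissue lie on the same side of the other tissue, as with *Il1rl1* (0.626 and 0.488 CPM in SI, 21.1 and 17.0 CPM in pancreas).

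*Epas1*, whose product HIF-2alpha responds to low oxygen, had 6 SI-higher regions of 13 and 0 pancreas-higher regions. Its strongest region, in intron 1, held 12.3 and 18.4 CPM in SI and 1.24 and 1.40 CPM in pancreas, a difference of 3.55 log2 (SE 0.35, adjusted p = 4.3e-06 by edgeR). The *Epas1* promoter held 84.1 and 79.9 CPM in SI and 35.6 and 27.2 CPM in pancreas. Hypoxia and glycolysis genes as a whole were close to the shares of all tested regions, with 9 SI-higher (9.47%) and 12 pancreas-higher (12.6%) regions of 95, and 15 and 6 with scaling by library size alone. *Hilpda*, a lipid droplet protein induced by hypoxia, and *Pfkfb3*, a regulator of glycolysis, had regions that were 1.47 and 1.89 log2 higher in pancreas.

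Receptors for neuronal signals were also divided. *Ramp1*, whose product turns the calcitonin receptor-like receptor into the CGRP receptor, had 10 pancreas-higher regions of 10. Its strongest region, in intron 1, held 3.51 and 3.87 CPM in SI and 41.9 and 34.5 CPM in pancreas, a difference of 3.37 log2 (SE 0.22, adjusted p = 1.6e-07 by edgeR). *Calcrl*, its partner, had 3 of 9, the strongest by 3.42 log2 and 179 kb from the TSS, whereas its promoter did not pass the test (adjusted p = 0.77 by edgeR). *Ret*, the receptor for glial cell-derived neurotrophic factors, had 5 SI-higher regions of 5. Its strongest region held 6.36 and 6.20 CPM in SI and 1.53 and 1.40 CPM in pancreas, a difference of 2.09 log2 (adjusted p = 0.0077 by edgeR). Without pancreas replicate 1 or 2 the *Ret* call was lost (adjusted p = 0.060 and 0.052 by edgeR), with differences of 2.16 and 2.03 log2. Over the list, 10 of 87 regions were higher in SI (11.5%, against 8.45% of all tested) and 22 in pancreas (25.3%, against 12.0%).

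Transcription factor genes of innate lymphoid cells had 31 SI-higher (8.78%, against 8.45% of all tested) and 69 pancreas-higher regions (19.55%, against 12.0%) of 353. With scaling by library size alone the counts were 50 and 55. *Bach2*, a repressor that holds lymphocytes in a less differentiated state, had 20 pancreas-higher regions of 29. Its strongest region held 1.40 and 1.11 CPM in SI and 24.4 and 19.4 CPM in pancreas, a difference of 4.13 log2. *Rora* and *Zbtb16*, which act in ILC2 development, had 8 of 29 and 5 of 14 pancreas-higher regions. *Runx3*, a factor of ILC1s, ILC3s and cytotoxic lymphocytes, had 11 SI-higher regions of 21 and 0 pancreas-higher regions. The strongest *Runx3* region held 7.17 and 4.84 CPM in SI and 0.589 and 1.94 CPM in pancreas, and lost its call without SI replicate 1 or pancreas replicate 1 (adjusted p = 0.089 and 0.19 by edgeR). *Zeb2*, a repressor of terminally differentiated lymphocytes, had 2 SI-higher regions of 7. *Gata3* had 2 SI-higher and 4 pancreas-higher regions of 19, and its promoter, at 22.4 and 23.5 CPM in SI and 27.1 and 22.2 CPM in pancreas, overlapped between the tissues.

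Ikaros family genes had 5 SI-higher (10.6%, against 8.45% of all tested) and 3 pancreas-higher regions (6.38%, against 12.0%) of 47. With scaling by library size alone the counts were 11 and 1. At *Ikzf3*, which encodes Aiolos, 1 of 7 regions was called. This region of intron 1 (chr11:98526697-98527278) held 12.1 and 15.7 CPM in SI and 8.48 and 7.23 CPM in pancreas. Both SI libraries lay above both pancreas libraries by 0.82 log2 (SE 0.24, adjusted p = 0.024 by edgeR), and the call was lost with the 4 libraries fitted alone. It was also lost without SI replicate 2, pancreas replicate 1 or pancreas replicate 2 (adjusted p = 0.13, 0.077 and 0.15 by edgeR). The *Ikzf3* promoter did not pass the test (0.45 log2, adjusted p = 0.18 by edgeR). *Ikzf2*, which encodes Helios, had 3 SI-higher and 2 pancreas-higher regions of 22. Its strongest region held 13.3 and 26.5 CPM in SI and 0.942 and 2.59 CPM in pancreas, a difference of 3.60 log2 (adjusted p = 4.4e-05 by edgeR). *Ikzf1*, which encodes Ikaros, had 1 region in each direction of 16.

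Interferon regulatory and STAT genes, with the SOCS inhibitors, had 33 SI-higher (23.7%, against 8.45% of all tested) and 18 pancreas-higher regions (12.95%, against 12.0%) of 139. With scaling by library size alone the counts were 48 and 8. *Irf4*, a factor of lymphocyte activation, showed both directions, with 8 SI-higher and 2 pancreas-higher regions of 24. A region 37.0 kb from the *Irf4* TSS held 3.47 and 2.58 CPM in SI and 27.8 and 28.9 CPM in pancreas, whereas the promoter held 27.0 and 11.7 CPM in SI and 8.95 and 6.15 CPM in pancreas. The *Irf4* promoter lost its call without SI replicate 1 (0.58 log2, adjusted p = 0.20 by edgeR) or pancreas replicate 2 (adjusted p = 0.11 by edgeR). *Socs1*, an inhibitor of JAK signalling, had a region at 6.74 and 5.92 CPM in SI and 73.8 and 68.2 CPM in pancreas, a difference of 3.49 log2 (SE 0.23, adjusted p = 1.6e-07 by edgeR). The *Socs1* promoter did not pass the test (adjusted p = 0.21 by edgeR). *Stat5a*, a transducer of IL-2 and IL-7 signals, had 4 SI-higher regions of 5, and its strongest region, in intron 14 of *Stat3*, held 21.6 CPM in SI replicate 1 and 3.0 CPM in SI replicate 2. Without SI replicate 1 it differed by 1.62 log2 and its call was lost (adjusted p = 0.086 by edgeR). Of the 33 SI-higher regions, 3 were called in each fit without 1 library, and of the 18 pancreas-higher regions 8.

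Homing and residency genes had 13 SI-higher (7.47%, against 8.45% of all tested) and 25 pancreas-higher regions (14.4%, against 12.0%) of 174. The list was thus close to the shares of all tested regions. With scaling by library size alone the counts were 24 and 19. *Ccr6*, the receptor for the gut chemokine CCL20, had 1 region, at 9.15 and 5.09 CPM in SI and 1.12 and 1.51 CPM in pancreas. *Itga4*, the integrin subunit alpha4 used in gut homing, had 2 SI-higher and 3 pancreas-higher regions of 28.

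Checkpoint and costimulatory genes had 9 SI-higher (7.32%, against 8.45% of all tested) and 35 pancreas-higher regions (28.5%, against 12.0%) of 123. *Icos*, a costimulatory receptor on which ILC2s depend, had 5 pancreas-higher regions of 22, the strongest at 0.770 and 1.88 CPM in SI and 12.1 and 14.4 CPM in pancreas. *Ctla4*, its inhibitory neighbour on chromosome 1, had 2 SI-higher regions of 12, the strongest at 17.6 and 8.64 CPM in SI and 1.35 and 1.83 CPM in pancreas. The inhibitory receptor gene *Lag3* had 2 of 3, the strongest 2.70 log2 higher in SI. *Tnfsf8*, encoding the CD30 ligand, had 4 pancreas-higher regions of 7, the strongest by 2.66 log2.

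The remaining lists showed smaller or mixed differences. Of all tested regions, 8.45% were SI-higher and 12.0% pancreas-higher. TGF-beta and SMAD genes had 10 SI-higher (7.09%) and 14 pancreas-higher (9.93%) regions of 141, close to those shares. *Smad3*, a TGF-beta signal transducer, had 6 pancreas-higher regions of 28, the strongest by 3.58 log2, and *Tgfbr1*, a TGF-beta receptor, had 1 SI-higher region of 11 that stood at 18.6 CPM in SI replicate 1 and 3.0 CPM in SI replicate 2. The *Tgfbr1* call was lost without SI replicate 1 (1.78 log2, adjusted p = 0.13 by edgeR) or pancreas replicate 1 (adjusted p = 0.083 by edgeR). Immediate early genes had 7 SI-higher (4.46%) and 18 pancreas-higher (11.5%) regions of 157. *Egr2* and *Egr3*, activation-induced zinc finger factors, had regions 3.38 and 2.43 log2 higher in pancreas. NF-kappaB genes had 5 SI-higher (3.97%) and 15 pancreas-higher (11.9%) regions of 126. For these 3 lists the balance turned with scaling by library size alone, to 18 and 8, 20 and 12, and 14 and 8 regions. Heat shock genes, which can respond to tissue dissociation, had 4 SI-higher regions and 1 pancreas-higher region of 36, of which 1 and 0 were called in each fit without 1 library.

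**Figure D4:**
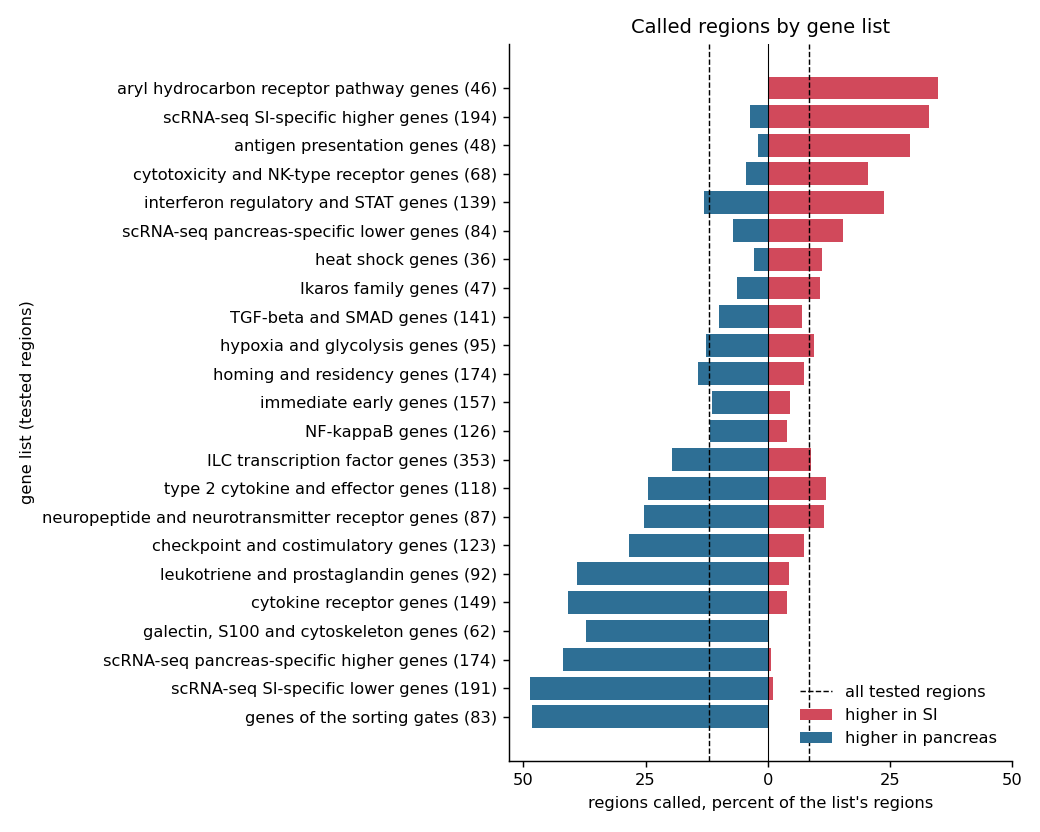
Called regions of 23 gene lists as percent of each list's tested regions (x axis), with SI-higher regions to the right and pancreas-higher regions to the left of 0, and the number of tested regions in parentheses. Dashed lines mark 8.45% and 12.0% over all tested regions. The bars of the gate genes lie to the left alone (40 of 83 regions) and those of the aryl hydrocarbon receptor pathway to the right alone (16 of 46).

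Gene lists from the single-cell RNA sequencing of the study, which used other cells, addressed whether accessibility followed mRNA. At genes whose mRNA was highest in SI among 5 tissues, 64 of 194 regions were SI-higher and 7 pancreas-higher, with a median of 0.59 log2 toward SI. At genes lowest in SI, 2 of 191 regions were SI-higher and 93 pancreas-higher. Of the 93, 21 lay at *Mdfic*, 19 at the gate gene *Il1rl1* and 10 at *Ramp1*. At genes highest in pancreas, 1 of 174 was SI-higher and 73 pancreas-higher, with a median of 0.66 log2 toward pancreas. At genes lowest in pancreas, 13 of 84 were SI-higher and 6 pancreas-higher. Of all tested regions, 8.45% were SI-higher and 12.0% pancreas-higher, and their median was 0.06 log2 toward SI. Examples were *Pde1c*, a phosphodiesterase, at 38.3 and 38.8 CPM in SI and 5.83 and 3.45 CPM in pancreas, and *Stc2*, a secreted glycoprotein, whose promoter held 2.70 and 1.36 CPM in SI and 19.8 and 26.6 CPM in pancreas. *Hes1*, a Notch target, showed a promoter 1.78 log2 higher in SI and a region 63.6 kb away that was 2.34 log2 higher in pancreas. The cells of these lists were also gated by ST2 and CD25 in pancreas and by Thy1 and KLRG1 in SI, and some of their genes belong to the lists above. The lists lowest in SI and highest in pancreas also share genes, such as *Lgals1* and *S100a10*, and are not independent.

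The largest single differences lay outside promoters. The largest was a pancreas-higher intergenic region on chromosome 14 (chr14:86646611-86647145), 347 kb from the nearest gene *Gm32815*, with 1.11 and 0.871 CPM in SI and 64.6 and 72.7 CPM in pancreas. Pancreas exceeded SI by 6.12 log2 there (SE 0.34, adjusted p = 3.7e-08 by edgeR). Near *Mc3r*, *Gm30712*, *Gm14616*, *Olfr314*, *Sgk1* and *Adgrl2*, regions were 4.72 to 5.46 log2 higher in pancreas, with 0.0481 to 0.963 CPM in the SI libraries. *Mc3r* encodes a melanocortin receptor, *Sgk1* a kinase of cell survival and ion transport, and *Adgrl2* an adhesion receptor. Among SI-higher regions, the one near *Esm1*, an endothelial proteoglycan gene, held 35.1 and 65.8 CPM in SI and 2.06 and 2.59 CPM in pancreas, a difference of 4.46 log2 (adjusted p = 1.4e-06 by edgeR). Regions near *Stmnd1*, *Dennd11*, *Stard6* and in intron 3 of *Etv6* differed by 4.12 to 4.29 log2. The regions near *Bcl2l11* (pro-apoptotic BIM), *Slamf6* (a lymphocyte receptor) and *Mef2c* (a transcription factor) differed by 4.47, 4.30 and 4.08 log2, yet SI replicate 1 held 30.4, 24.4 and 26.1 CPM and SI replicate 2 held 4.21, 3.66 and 3.03 CPM. The *Mef2c* call was lost without SI replicate 1 (1.79 log2, adjusted p = 0.14 by edgeR), and those of *Mef2c* and *Bcl2l11* without pancreas replicate 1 (adjusted p = 0.081 and 0.056 by edgeR).

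Some genes carried many called regions. Those with the most SI-higher regions were the non-coding gene *0610039H22Rik* within *Msi2* (15 of 18 regions), the kinase gene *Map4k3* (12 of 16), the phosphodiesterase gene *Pde4b* (12 of 28, beside 1 pancreas-higher region), the repair gene *Rad51b* (12 of 23) and *Runx3* (11 of 21). The pancreas-higher region of *Pde4b*, in intron 1, differed by 3.60 log2 (adjusted p = 6.7e-06 by edgeR), more than any SI-higher region of that gene. The strongest *Map4k3* region held 19.4 and 19.3 CPM in SI and 1.35 and 1.83 CPM in pancreas. Those with the most pancreas-higher regions were *Mdfic*, encoding an inhibitor of MyoD family factors (21 of 26), *Bach2* (20 of 29), *Il1rl1* (19 of 19), the phosphatase gene *Inpp4b* (18 of 45) and *Gm41414* (14 of 19). At *Mdfic* the strongest region held 0.818 and 0.418 CPM in SI and 10.1 and 20.7 CPM in pancreas. The promoters of *Inpp4b* and *Map4k3* did not pass the test (adjusted p = 0.46 and 0.44 by edgeR), although 18 and 12 of their regions were called.

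LI and lung ILC2s were sorted with the pancreas gate, and their 4 libraries are not part of the contrast between SI and pancreas. Like SI, LI was treated with EDTA and DTT before digestion, whereas lung was not. Tissue and dissociation therefore cannot be told apart between LI and lung either. All 10 libraries shared 1 estimate of dispersion. Over all tested regions, 4088 (8.18%) were higher in LI than in lung and 1359 (2.72%) higher in lung than in LI. Of the 4224 SI-higher regions, 1129 (26.7%) were higher in LI and 53 (1.25%) higher in lung, with a median of 0.57 log2, LI minus lung. Of the 6012 pancreas-higher regions, 526 (8.75%) were higher in LI and 647 (10.8%) higher in lung, with a median of −0.06 log2. Regions without a call between SI and pancreas had a median of −0.01 log2. The SI-higher regions thus held 27.6% of the regions higher in LI, and the pancreas-higher regions held 47.6% of those higher in lung. Without pancreas replicate 1, 406 SI-higher regions were also higher in LI.

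Individual genes followed or left this pattern. At *Il9*, LI exceeded lung by 3.65 log2 at the region printed above (adjusted p = 8.9e-05 by edgeR), and at the *Ahrr* promoter by 2.83 log2 (adjusted p = 9.0e-05 by edgeR). At *Epas1* and *Il13* the values were 0.67 and 0.61 log2, without passing the test (adjusted p = 0.15 and 0.18 by edgeR). At the pancreas-higher regions of *Ramp1* and of intron 8 of *Il1rl1*, lung exceeded LI by 1.75 and 1.52 log2. At *Bach2* and *Mdfic* the LI minus lung values were 0.63 and 0.99 log2, without passing the test. The strongest *Il7r* region, higher in pancreas than in SI, was 1.62 log2 higher in LI than in lung (adjusted p = 0.0056 by edgeR).

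**Figure D5:**
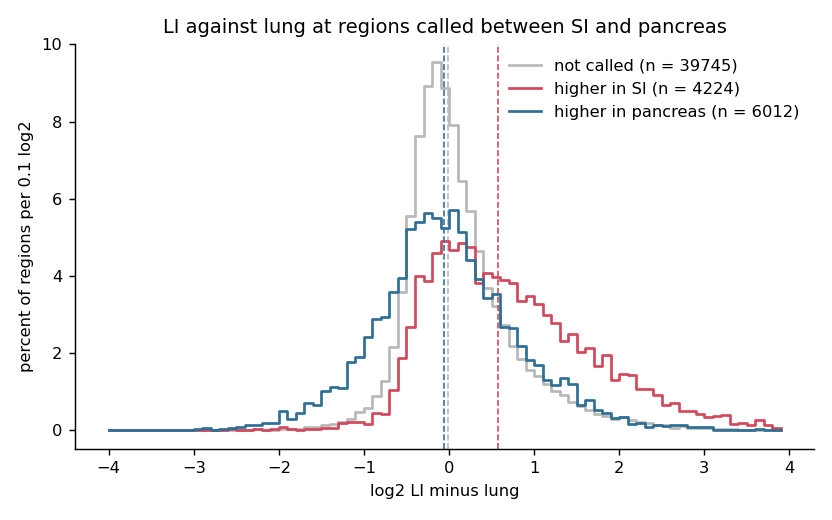
Distribution of the difference between LI and lung (x axis, log2 LI minus lung) for SI-higher, pancreas-higher and other regions, as percent of each set per step of 0.1 log2 (y axis), with dashed lines at the medians. The SI-higher distribution is shifted toward LI (median 0.57), and the other distributions centre near 0 (−0.06 and −0.01).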

How the data were processed

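ATAC-seq libraries of sorted mouse ILC2s were assigned to tissues and replicates from their labels. Per the methods and processing notes of the authors, reads were checked with FastQC 0.11.9 and mapped to mm10 with Bowtie2 2.2.9. SAMtools 1.8 was used on the alignments, and uniquely mapped reads were kept. Peaks were called in each library with MACS2 2.1.1. HOMER joined, over the tissues, the peaks that both libraries of a tissue held, and bedtools counted the reads at each joined peak. The deposited values are these raw counts, not normalized. Removal of duplicates, a mitochondrial filter and a Tn5 shift are not given in the sources used here. Reads were not marked by molecular identifiers and need not be independent, so comparisons with counting noise cover counting error only.

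Regions with at least 1 count in the 10 libraries were tested with edgeR 4.0.16 in R 4.3.3 (TMM normalization, glmQLFit and glmQLFTest, tissue as the only factor), and p-values were adjusted over all regions. SE is the log2 difference divided by the square root of F. P-values measure the spread between pools of mice. With 2 libraries per tissue, a fit without 1 library leaves that tissue with 1 library, which is assumed to vary like the other groups. On simulated counts for 49981 regions, this contrast recovered 12 of 100 regions changed 2-fold and 87 of 100 changed 4-fold, with 6 false calls. No other region was changed there, whereas 20.5% of regions were called in the data, with differences down to 0.52 log2. The adjustment of p-values is stricter when few regions change, so these shares do not measure the recovery in the data.

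Genes and classes came from the RefSeq annotation of GRCm38, the assembly of mm10, and sequences from its genome. Coordinates of regions are printed as the table gives them. Python 3.11.15, pandas 2.3.3 and pysam 0.24.0 were used. The members and gene lists were chosen with earlier results of these data known. Named genes were, per direction, the 8 largest called differences (without overlap of the libraries, at least 3 CPM in each library of the higher tissue, sign kept without each library), the 5 genes with the most called regions, 18 genes chosen by name, and up to 4 members of each list with the largest called difference. Alternatives were other scalings, a filter at 10 counts in 2 libraries, DESeq2 1.42.0, fits of the 4 libraries alone, thinned counts, removal of trends with GC content and width (loess, span 0.3), a wider promoter, a distance limit of 50 kb, a block on the replicate number, and the loss of each library in turn. A few genes that the rule names are not reported here.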

Additional observations from a re-analysis of the deposited data

How the results depend on the processing

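The counts of SI-higher and pancreas-higher regions, 4224 and 6012, moved with the scaling, the model and single libraries. Library size alone gave 8489 SI-higher regions. With the 4 libraries fitted alone, edgeR called 2656 and DESeq2 2590 SI-higher regions. At an unadjusted p under 0.05, 8068 regions were SI-higher, 2580 SI-higher regions were also higher in LI, and 1607 pancreas-higher regions were also higher in lung. After removal of trends with GC content and region width, the last number was 1008 in place of 647. Leaving out 1 library gave 1364 (without pancreas replicate 1) to 4230 SI-higher regions and 3682 (without pancreas replicate 2) to 6117 pancreas-higher regions. Likewise, 406 to 1284 SI-higher regions were also higher in LI and 441 to 884 pancreas-higher regions also higher in lung. Calls made in each of these 4 fits, counted after seeing the data, numbered 820 and 2820. A promoter of 1000 bases on both sides of the TSS held 18.8% of SI-higher and 7.90% of pancreas-higher regions. The causes were not tested.

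The replicate number as a block gave 4240 and 6317 regions, and changed no call of the 110 named regions. Nothing in the labels pairs the pools, and deviations of same-numbered libraries correlated at −0.131 across regions, so a crossed pairing, added after seeing the data, was fitted and gave 5002 and 7022 regions. None of these 110 called regions changed direction in any fit. For the 8 largest differences per direction, the naming rule had itself required the same sign without each library. Promoters given beside the 110 could change sign when 1 library was left out, as at *Il13* (−0.57 to 0.15 log2, SI minus pancreas). At most 6 of the 110 lost their call under another model or scaling, and 6 to 23 when 1 library was left out, with the largest loss without pancreas replicate 1. Pancreas replicate 2 had the fewest counts, with a median of 71 per region. When all libraries were thinned to the total of that library, 3975 SI-higher and 5689 pancreas-higher regions were called. What the depth of that library did to the calls was not tested. In simulated counts with few changed regions, 12 of 100 differences of 2-fold were recovered, which does not measure the recovery in these data.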

Other observations

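Called regions lay side by side along the chromosomes. Runs of at least 5 neighbouring tested regions called in the same direction numbered 102 for pancreas and 41 for SI. Beside the run at *Il1rl1*, the longest pancreas-higher runs held 16 regions over 71.5 kb at *Mdfic*, 16 regions over 248 kb from *Ifne* (interferon epsilon) across *Mir31* to *Gm12602*, 12 regions over 67.4 kb around *Ramp1*, and 11 regions over 77.7 kb at *Marchf8* and *Alox5*. The median difference in the *Ramp1* run was 2.61 log2 and that in the *Alox5* run 2.44 log2, pancreas minus SI. The longest SI-higher run held 9 regions over 96.4 kb from *Csgalnact2* across *Ret* to *1700069P05Rik*, with a median of 1.71 log2, SI minus pancreas. Runs of 8 regions followed at *Ankrd6* (45.0 kb), *0610039H22Rik* (50.5 kb), *Map4k3* (55.4 kb), and *4930405A10Rik* and *Gm10248* (259 kb). Genes in this paragraph were named by the length of their runs after the values were seen.

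The 310 SI-higher regions at which SI replicate 1 exceeded SI replicate 2 by more than 3 times held medians of 15.3 and 3.31 CPM in these libraries and 1.62 CPM in pancreas. In LI replicates 1 and 2 their medians were 4.97 and 2.91 CPM. Promoters were 5.16% of them, against 14.0% of the other SI-higher regions, whose medians were 11.2 and 10.6 CPM in SI.

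Of the 50 regions with the most counts, 15 were higher in pancreas, 0 in SI, and 35 were not called.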
